A study of Homo sapiens with 17 samples.

Results

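Long internal exon regions are stretches of at least 1000 bp that overlap an exon of a single gene and have another exon of that gene on either side. They were taken from the tables of m6A signal in 3 prostate cell lines. A region was counted where its overlap entry held exactly 1 mark, of type E (exon) or PE (exon and promoter), where the same gene was named in both neighbour columns, and where its end minus start plus 1 reached 1000 bp. HPr1AR had 5948 such members among 139373 regions, LNCaP 4711 among 110260 and 22Rv1 3210 among 77311, or 13869 of 326944 in all. They lay in 3397, 2969 and 2194 genes. No neighbour farther than 10000 bp is listed, so an internal exon whose next exon lies farther off is left out. The rule used position and width, and no fold or p-value. It was set with earlier results of these data known. Region width is itself an outcome of how the authors built the regions, and whether it follows signal was not tested.

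N6-methyladenosine (m6A) is a methylated adenosine that a nuclear complex around METTL3, METTL14, WTAP and VIRMA writes into messenger RNA, and that proteins of the YTH family read. It is known to sit near stop codons, in 3′ untranslated regions and in unusually long internal exons, while short internal exons close to splice junctions carry little of it. Exon junction complexes, deposited near each splice junction, are known to shield the surrounding RNA from the writer, and a long exon leaves a stretch beyond their reach.

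The study pulled down RNA with an antibody against m6A and, as background, with immunoglobulin G (IgG). All cells carried the label WT, were treated with vehicle and were grown to 70% confluence in what the labels call biological triplicates. HPr1AR is a non-malignant prostate line kept in keratinocyte serum-free medium; LNCaP and 22Rv1 are prostate cancer lines kept in RPMI-1640 with serum. The labels gave 3 m6A and 3 IgG samples for HPr1AR and for LNCaP, and 2 m6A and 3 IgG samples for 22Rv1. Pull-downs used the EpiMark enrichment kit. Each group is a single established line, so cancer and non-malignant origin cannot be told apart from any other trait of a line.

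Every table gives 1 comparison of m6A with IgG pull-downs. Values of single samples are not in it, the spread between replicates is therefore unknown, and each interval given covers counting error only. Whole reads of the representative window of each region, a 20 bp window, were rebuilt from the deposited fold and p-value; the numerator was taken to be m6A and the reference IgG. The rebuilt depths were 5.13 M m6A and 11.7 M IgG reads in HPr1AR, 3.92 M and 8.87 M in LNCaP, and 3.30 M and 4.82 M in 22Rv1. The read ratio is the log2 of the m6A rate over the IgG rate per rebuilt depth. A region is called higher where the ratio is above 0 at an adjusted p under 0.05 (exact binomial test, two-sided, Benjamini-Hochberg over all regions of the line). In 1202, 856 and 13 members the deposited p-value was 0; their reads are the fewest that reach such a p-value, so their ratios are lower bounds and several members share the same values. With members whose reads could not be matched, bounds numbered 1202, 972 and 43. The call stayed undetermined in 3, 102 and 9 members, which remain in all totals. More than 1 pair of counts fitted in 188, 1569 and 40 members, and the nearest pair was taken.

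Members were wide but not uniform. HPr1AR members had a median width of 1640 bp, LNCaP members 1670 bp and 22Rv1 members 1590 bp, and the widest reached 5000, 5000 and 4990 bp. These are also the largest widths of any region of each line. Whether a limit in region building caps them, and so raises the number of members per gene, was not tested. A single member was found in 2039 genes of HPr1AR, 1948 of LNCaP and 1552 of 22Rv1, while 136, 67 and 34 genes held 5 or more. Promoter marks (type PE) stood on 25%, 26.1% and 28.0% of members.

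A long region was not always a long exon. Exon edges were recovered in the coordinates of the tables from the distances to neighbouring exons that the regions list. By these edges, 1796 members of HPr1AR (30.2%), 1348 of LNCaP (28.6%) and 519 of 22Rv1 (16.2%) held 1 or more whole introns. An edge is seen only where some region lists it, so introns can be missed. Whether the edges of an intron belong to the same transcript was not tested, so the counts are not strict lower limits. Members that adjoin another region, as pieces of longer runs do, made up 11.2%, 10.7% and 8.16%.

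By the authors' deposited table, an adjusted p under 0.05 was reached by 5948 of 5948 members in HPr1AR, where 96.5% of all regions reached it. In the authors' deposited table of LNCaP it was reached by 4710 of 4711 members, against 95.4% of all regions. In the authors' deposited table of 22Rv1 it was reached by 3210 of 3210, against 99.3% of all regions. The members' shares are close to these backgrounds, and the deposited fold counts the IgG log rate 2 times, so the read ratio was used for all that follows.

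By the read ratio of the representative window, most members were called higher. This test makes no allowance for the choice of that window among the windows of a region. In HPr1AR 3703 of 5948 members were higher (62.3%), where 38.0% of all regions were. In LNCaP 3039 of 4711 were higher (64.5%), against 38.0% of all regions. In 22Rv1 2203 of 3210 were higher (68.6%), against 54.3% of all regions. With each binomial p multiplied by the number of windows in the region, 46.1%, 49.1% and 51.1% of members were higher. The matching share over all regions is not given here. HPr1AR members had a median log2 read ratio of 1.78, LNCaP members 2.08 and 22Rv1 members 2.26, beside 1.21, 1.25 and 2.09 over all regions. Set against these medians of all regions in place of 0, 37.1%, 41.4% and 28.5% of members were higher, beside 21.4%, 21.4% and 16% of all regions; 437, 296 and 600 members were then lower.

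Short internal exon regions, which meet the same rule under 1000 bp, sat far below the members. They numbered 26869, 22428 and 19658, with a median width of 180, 180 and 160 bp, and 20.2%, 17.7% and 25.7% of them were higher. Their median log2 read ratio was 0.61, 0.42 and 0.77. The representative window of a member held a median of 23 m6A and 13 IgG reads in HPr1AR, 21 and 10 in LNCaP, and 26 and 8 in 22Rv1. In short regions these medians were 5 and 8, 4 and 7, and 6 and 6. Short regions thus had fewer m6A reads and somewhat fewer IgG reads than members did. Regions in 3′ end exons, where m6A is known to concentrate, had a median log2 read ratio of 2.19, 2.36 and 2.62, and 59.0%, 59.6% and 66.5% were higher. This class holds regions with no downstream neighbour listed. As neighbours are listed up to 10000 bp away, it can also hold internal exons before a longer intron. Their share was not tested.

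**Figure D1:**
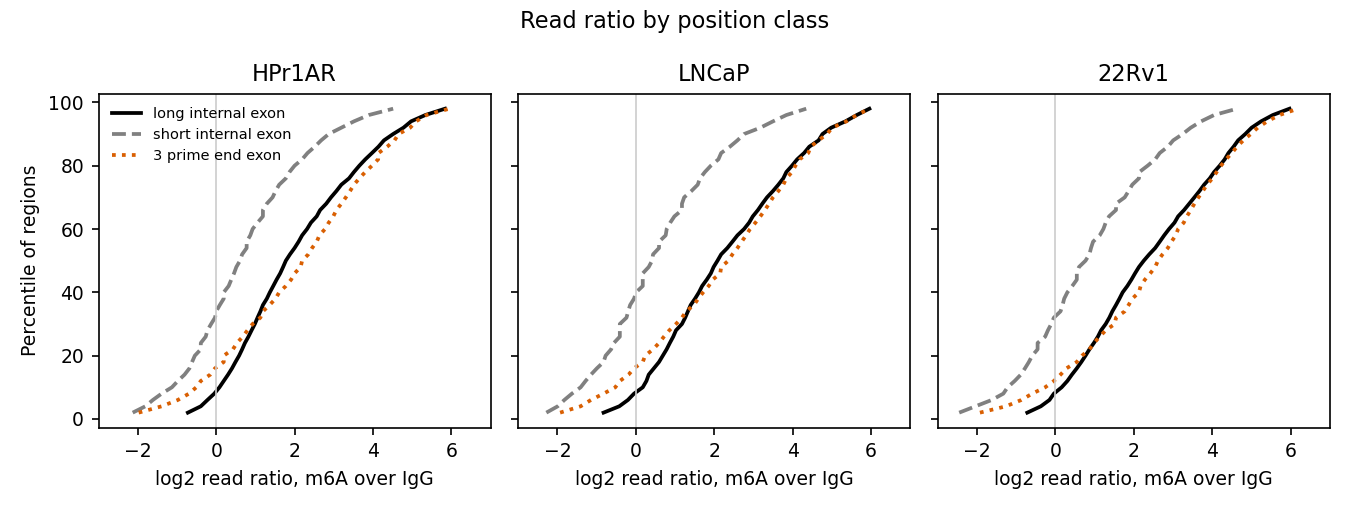
Percentile of regions (vertical axis) against the log2 read ratio of m6A over IgG (horizontal axis) for long internal, short internal and 3′ end exon regions, 1 panel per line. The curve of long internal exon regions lies to the right of that of short ones in each panel, with medians of 1.78 against 0.61 in HPr1AR, 2.08 against 0.42 in LNCaP and 2.26 against 0.77 in 22Rv1, and close to the curve of 3′ end exon regions.

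The share of higher regions climbed with width on both sides of 1000 bp. Among HPr1AR regions it was 3.09% of internal exon regions of 20 to 99 bp, 42.4% of those of 500 to 999 bp, 51.1% of members of 1000 to 1499 bp and 76.6% of members of 3000 to 5000 bp. In LNCaP the same 4 classes gave 2.41%, 41%, 51.7% and 81.6%. In 22Rv1 they gave 5.40%, 52.2%, 59.9% and 82.8%. The width of 1000 bp is therefore a cut through a gradual change, with no step at it. The m6A reads of the representative window rose along with width, from a median of 15 to 44 between the narrowest and widest members of HPr1AR, 14 to 44 in LNCaP and 19 to 44 in 22Rv1.

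**Figure D2:**
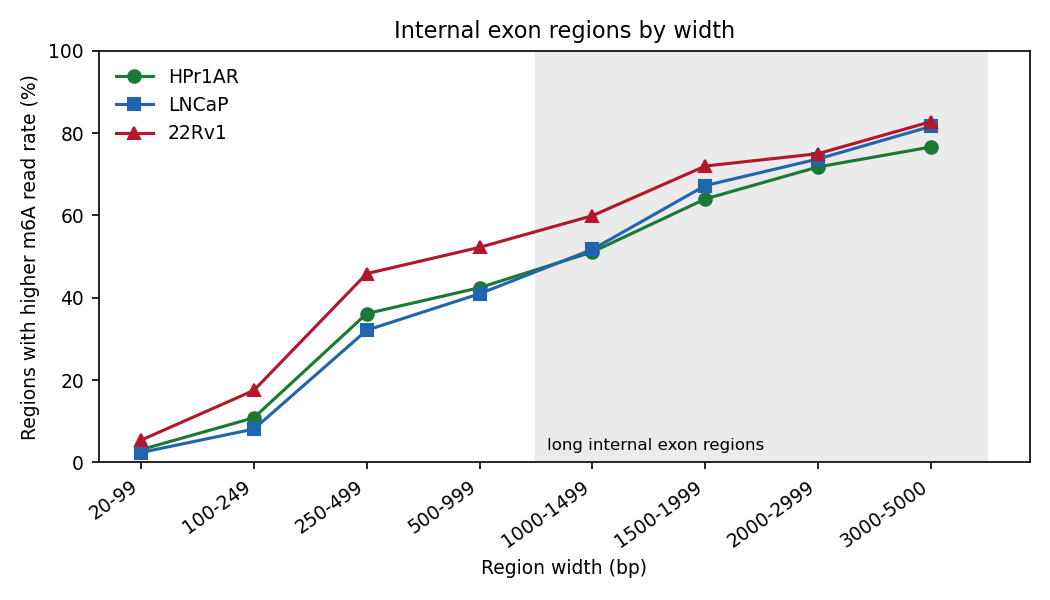
Share of internal exon regions called higher (vertical axis, percent) by region width in bp (horizontal axis), 1 line per cell line; the shaded part holds the long internal exon regions. The share climbs in all 3 lines from under 6% in the narrowest class to 76.6%, 81.6% and 82.8% in the widest.

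Wider regions hold more windows, of which the representative is 1, and more reads. Where long and short internal exon regions were compared inside bins of window number and total reads, only 806, 485 and 354 members had short regions beside them. The share higher was then 43.8% against 39.7% in HPr1AR, 46.2% against 35.8% in LNCaP and 58.5% against 45% in 22Rv1, so that the gap shrank from 42.1, 46.8 and 42.9 to 4.11, 10.4 and 13.5 percentage points. Matched on total reads alone, nearly all members could be compared and the gap was 13.2, 18.3 and 9.51 points. Matched on IgG reads, it was 39.1, 42.5 and 42.9 points. Against 3′ end exon regions in the same bins of windows and reads, members were higher less frequently, with 62.3% against 75.5%, 64.5% against 78.7% and 68.7% against 81.1%. In bins of IgG reads the sign turned, with 62.3% against 59.5%, 64.5% against 60.6% and 68.7% against 61.7%.

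Members with a recovered intron differed from the others. In HPr1AR 51.1% of members with an intron inside were higher, against 67.1% of those with none recovered, and the median log2 read ratio was 1.31 against 2.06. In LNCaP the shares were 52.1% and 69.5% and the medians 1.53 and 2.43. In 22Rv1 the shares were 57.2% and 70.8% and the medians 1.70 and 2.42. The gap was widest among members of 1000 to 1499 bp, where 27.0% against 58.2%, 27.9% against 58.5% and 34.8% against 63.0% were higher. At 3000 bp and more it was 74.3% against 78.5%, 75.8% against 86.3% and 77.6% against 85.5%. Members with an intron had fewer m6A reads in the median (17 against 26, 15 against 25 and 19 against 28) at like IgG reads (14 against 12, 11 against 10 and 8 against 7).

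Members that also carried a promoter mark, as an alternative start inside a gene does, were higher in 69.5%, 70.8% and 73.7% of cases, against 59.8%, 62.3% and 66.7% of members marked as exon alone. They were also wider, with medians of 1910 against 1570 bp, 1960 against 1580 bp and 1760 against 1530 bp. The part of width in this gap was not tested.

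Where in a region the representative window lay could be told to within 100 bp for 3259, 2759 and 1976 members. In higher members it was spread nearly evenly from the 5′ to the 3′ end of the region. With each region cut into 5 equal parts, the first and last together held 40.2% of 2041 such members of HPr1AR, 35.6% of 1762 LNCaP members and 35.3% of 1334 22Rv1 members. In members that were not called, the same end parts held 54.2% of 1212, 49.8% of 930 and 50.9% of 633. The higher members thus had their window in the interior of the region more frequently than those not called, in each line.

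**Figure D3:**
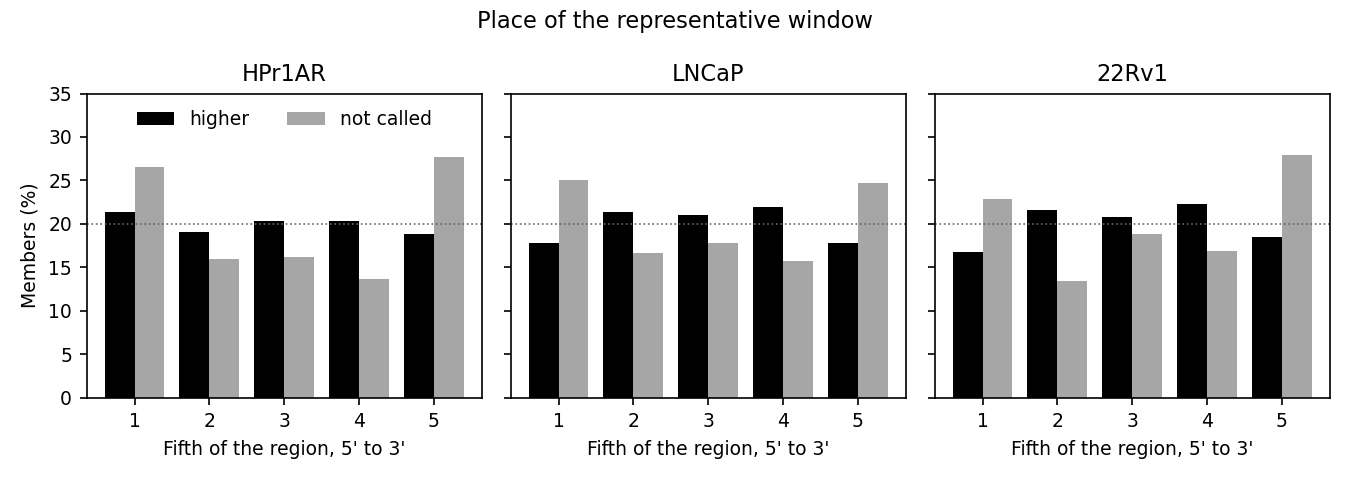
Share of members (vertical axis, percent) whose representative window lies in each of 5 equal parts of the region, from 5′ to 3′ along the transcript (horizontal axis), for members called higher (black) and not called (grey), 1 panel per line. The dotted line marks an even spread; grey bars stand above it in the first and last part, and these together hold 54.2%, 49.8% and 50.9% of members not called.

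The gene lists were written with earlier results of these data known, so their shares and ranks are description only. Over all members, 62.3%, 64.5% and 68.6% were higher. Transcription factors with zinc fingers and related domains had the largest median read ratio of the 9 gene lists described in each line. In HPr1AR all 23 members in 14 genes of that list were higher, in LNCaP all 22 in 13 genes and in 22Rv1 all 17 in 13 genes, with median log2 read ratios of 3.06, 3.84 and 4.42. ZNF318, a nuclear zinc finger protein, had 2 members per line with medians of 3.07, 4.95 and 5.62. PRDM2, a zinc finger methyltransferase, had a member at chr1:14104911-14109570 in LNCaP with at least 57 m6A and 8 IgG reads (log2 read ratio at least 4.01) and one of nearly the same extent in 22Rv1 with 62 and 4 reads (4.50, interval 3.07 to 6.42). HIVEP2, a large zinc finger factor that binds enhancers, had 3, 3 and 2 members, all higher, with medians of 2.63, 4.18 and 4.24. ATN1, a transcriptional corepressor, gave the lowest values of the list in 22Rv1, with 1.07 and 1.26. Of members in genes with a ZNF symbol, a set chosen after its values were seen that shares genes with the list and is no support for it, 89 of 101, 97 of 109 and 70 of 72 were higher.

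Genes of genome maintenance followed. HPr1AR had 17 of 24 of their members higher, LNCaP 17 of 19 and 22Rv1 15 of 15, with medians of 2.88, 3.76 and 4.41. ATRX, a chromatin remodeller with a known long internal exon, had 1 member per line at nearly the same place, chrX:76937001-76940510 in HPr1AR. Its representative window held at least 58 m6A and 28 IgG reads there, at least 59 and 18 in LNCaP, and 71 and 8 in 22Rv1. The log2 read ratios were at least 2.24 and 2.89, and 3.70 (interval 2.64 to 4.96). SLX4, a scaffold for DNA-cutting nucleases, had 4, 5 and 2 members, all higher, with medians of 4.33, 4.82 and 5.96. PALB2, a partner of homologous recombination proteins, had 2 per line with medians of 2.94, 4.53 and 6.08. TOPBP1, which helps start the replication checkpoint, differed: 1 of its 3 members was higher in HPr1AR, with a median of -0.32, its single LNCaP member at 1.04 was not called, and its single 22Rv1 member at 1.30 was higher.

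Chromatin regulators were the list with most members. HPr1AR had 63 of 76 higher, LNCaP 54 of 62 and 22Rv1 54 of 61, with medians of 2.50, 3.30 and 3.30. Of the 25 listed genes that had a member in each line, 23 had a higher member in each, not necessarily at the same place. Over all genes with a member in each line, 1183 of 1689 did. KMT2D, a histone H3 lysine methyltransferase, had 5 members per line, all 15 of them higher, with medians of 2.70, 3.23 and 2.60. Some of these are adjoining pieces of a longer run. SETD2, another histone methyltransferase, had 1 member per line with log2 read ratios of at least 4.14, at least 4.98, and 2.91. SETD1B, another histone H3 methyltransferase, had 3 per line with medians of 3.39, 4.40 and 4.55. The acetyltransferase EP300 and the remodeller EP400 lay lower: 0 of 2, 1 of 3 and 1 of 3 members of EP300 were higher, and 3 of 5, 0 of 1 and 0 of 3 of EP400.

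Mitotic and centrosomal genes gave 31 of 38, 25 of 28 and 21 of 26 higher members, with medians of 1.97, 2.42 and 2.61. MKI67, the proliferation marker that coats mitotic chromosomes, had 4, 3 and 3 members, all higher, with medians of 1.60, 2.44 and 2.87. PCNT, a scaffold of the centrosome, had 9, 6 and 5 members, all higher, with medians of 2.78, 3.17 and 4.25. KNL1, a kinetochore scaffold, had 1 of the 2 widest members of 22Rv1, at chr15:40912851-40917840, with 62 m6A and 7 IgG reads and a log2 read ratio of 3.69 (interval 2.57 to 5.07). CKAP5, a microtubule polymerase, had 1, 2 and 1 members and none was called, with medians of 0.19, -0.33 and -0.13.

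Among splicing and nuclear speckle genes, higher were 20 of 27, 19 of 26 and 13 of 14, with medians of 1.41, 1.68 and 2.21, each under the median of all members of the line. SON, a core speckle protein, had 4 of 4, 4 of 5 and 3 of 3 members higher, with medians of 2.13, 2.81 and 3.08. SRRM2, its partner scaffold, had 4 of 4, 3 of 4 and 3 of 3 higher, at medians of 0.88, 1.31 and 1.67.

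RNA silencing and granule scaffolds had the lowest medians of these 9 lists, 1.08, 1.18 and 1.46. Higher were 14 of 22, 10 of 19 and 9 of 14 members. These shares, 63.6%, 52.6% and 64.3%, stand beside 62.3%, 64.5% and 68.6% of all members. PRRC2B, a protein linked to translation initiation, had 5, 4 and 4 members, all higher, at medians of 1.54, 1.88 and 1.70. ATXN2L, a stress granule regulator, had 3, 2 and 2 members and none was higher, at medians of 0.44, 0.48 and 0.61. EDC4, a decapping scaffold, had none higher of 1, 1 and 2, at medians of -0.17, 0.76 and 0.09.

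Cytoskeletal linkers gave 52 of 73, 35 of 49 and 33 of 37 higher members, with medians of 2.08, 2.56 and 2.78. All 12 of these genes that had a member in each line had a higher one in each. MAP1A, a microtubule-associated protein best known from neurons, had 2 per line, all higher, at medians of 4.98, 5.08 and 4.88. GOLGB1, a giant Golgi tether, had 3 per line, all higher, at medians of 2.29, 2.81 and 3.38. PLEC, which ties intermediate filaments to junctions, had low ratios in HPr1AR (median 0.61, 5 of 6 higher) and larger ones in LNCaP (1.58, 4 of 4) and 22Rv1 (2.03, 4 of 4). Its best-covered members of HPr1AR had up to 106 IgG reads in the representative window.

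**Figure D4:**
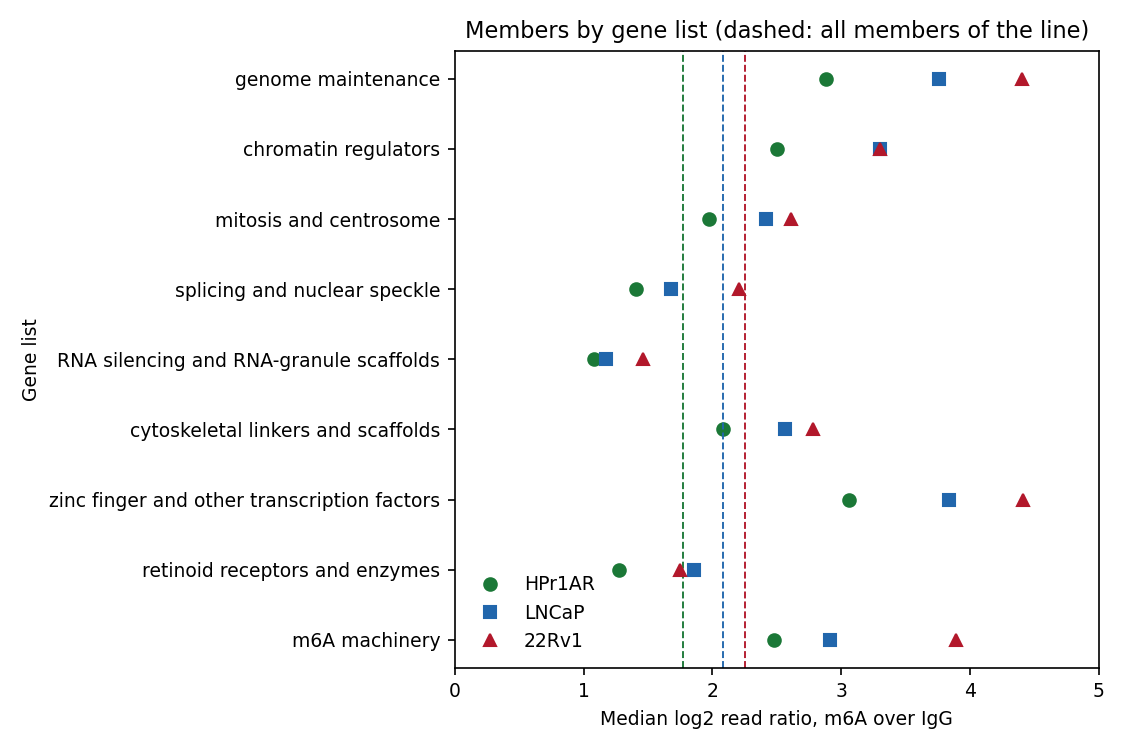
Median log2 read ratio of m6A over IgG (horizontal axis) of members in each of 9 gene lists (vertical axis), 1 symbol per line; dashed lines mark the median of all members of that line. Zinc finger factors (3.06, 3.84 and 4.42) and genome maintenance genes (2.88, 3.76 and 4.41) lie farthest right, and RNA silencing and granule scaffolds (1.08, 1.18 and 1.46) farthest left. The lists were written with earlier results of these data known.

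Members in genes of the m6A machinery itself were mostly higher, but few of the listed genes held one. Of 19 such genes, 6 in HPr1AR, 6 in LNCaP and 4 in 22Rv1 held a member, and 5, 4 and 4 held a higher one. HPr1AR had 7 of 8 members called so, LNCaP 6 of 8 and 22Rv1 6 of 6, with medians of 2.48, 2.91 and 3.89. VIRMA, the scaffold subunit of the writer complex, had 3 members per line at matching places, all 9 of them higher. The one at chr8:95521931-95524330 in HPr1AR had 50 m6A and 5 IgG reads (log2 read ratio 4.51, adjusted p = 4.84e-19 by the exact binomial test), and its counterparts had 45 and 9 in LNCaP (3.50) and 55 and 2 in 22Rv1 (5.33). ZC3H13, which anchors the complex in the nucleus, had 1 member per line near chr13:46541621-46544600, at least 2.91, at least 3.45, and 3.80. YTHDF1, a cytoplasmic reader, had 1 per line at least 2.19, at least 3.23, and 3.41. WTAP, the writer's adaptor, gave at least 2.29, at least 2.60, and 4.08. METTL3, the catalytic subunit, had a single member, in HPr1AR, with 13 m6A and 17 IgG reads (0.80, interval -0.36 to 1.93), which was not called.

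Coregulators of nuclear receptors held members in each line. MED1, a Mediator subunit that nuclear receptors bind, had a member near chr17:37563811-37566980 with at least 55 m6A and 12 IgG reads in HPr1AR, at least 58 and 14 in LNCaP, and 72 and 5 in 22Rv1. All 3 were higher, at log2 read ratios of at least 3.39 and 3.23, and 4.40. The coactivators NCOA1 and NCOA2 each had a higher member in all 3 lines, that of NCOA1 at least 5.33, 3.55 and 4.39. In bulk RNA, fewer cells of a type and less RNA per cell cannot be told apart, nor can low abundance and little mark where a gene lists no member.

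Retinoid receptors and enzymes, named here because the series' title concerns the retinoic acid receptor RARG, held few members: 14, 5 and 4. Of these 9, 4 and 2 were higher (64.3%, 80% and 50%), beside 62.3%, 64.5% and 68.6% of all members. RARG had 1 member per line around chr12:53606851-53609570 and none was called. Its reads were 20 m6A and 25 IgG in HPr1AR (0.87, interval -0.06 to 1.78), 9 and 6 in LNCaP (1.76, interval 0.11 to 3.53; adjusted p = 0.0861 by the exact binomial test) and 8 and 8 in 22Rv1 (0.55, interval -1.06 to 2.16). RARA, the related receptor, had higher members at 4.55 and 2.31 in HPr1AR and at 5.04 in LNCaP. RDH13, a retinol dehydrogenase, had a higher member in all 3 lines, at least 4.14, at least 3.84, and 2.95. ALDH1A3, which makes retinoic acid, had 6 members in HPr1AR between -0.02 and at least 2.63, of which 3 were higher, and 1 in 22Rv1 with 50 m6A and 0 IgG reads, a log2 read ratio of at least 4.61.

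Across lines, 4204 genes held a member somewhere and 1689 held one in all 3 lines. A higher member in each line, not necessarily at the same place, was found in 1183 genes. Among those with the largest lower limit in their weakest line were ZNF527, QRICH2, ZFHX4, PYROXD2, LYSMD4, LMTK3, ANKS3, DNAJC21 and MAP1A. The member of ZNF527, a zinc finger gene, lay at chr19:37879251-37880760 in HPr1AR and had at least 52 m6A reads there against 0 IgG reads, at least 55 against 1 in LNCaP, and 71 against 0 in 22Rv1. Its log2 read ratios were at least 5.31, 6.96 and 5.11, with adjusted p-values of 1.59e-24, 6.77e-25 and 1.09e-25 by the exact binomial test. QRICH2, a glutamine-rich protein of the sperm flagellum, lay at chr17:74288391-74290100 with at least 53 against 1, at least 54 against 0, and 76 against 1 reads. DNAJC21, a co-chaperone of ribosome assembly, lay at chr5:34950261-34951580 with at least 53 against 2, at least 54 against 0, and 63 against 1 reads. In all of these the IgG pull-down had 0 to 2 reads, so the ratio has no firm upper limit.

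**Figure D5:**
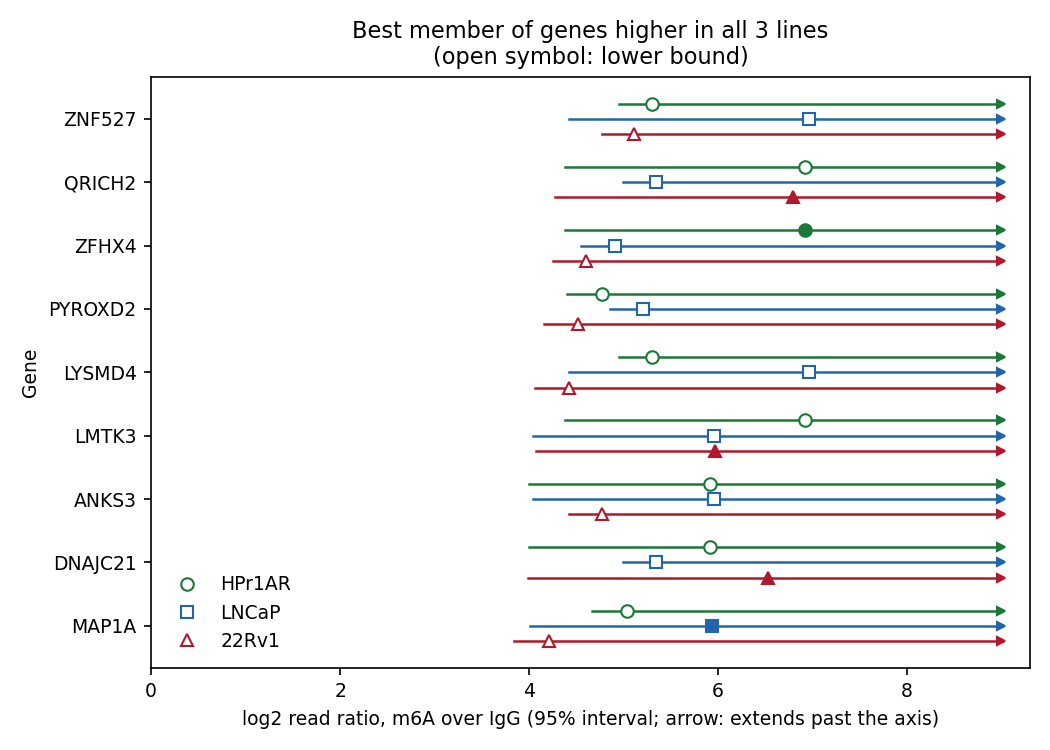
Log2 read ratio of m6A over IgG (horizontal axis) with its 95% exact binomial interval for the best member of 9 genes (vertical axis) in each line; open symbols are lower bounds and arrows mark intervals past the axis. The lower limits all lie above 3.8, and the intervals of the 3 lines overlap within each gene; the best members of ZFHX4 and MAP1A do not lie at the same place in every line.

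UBR4, PRKDC, DYNC1H1 and TNRC18 were among the genes with most members. UBR4, a giant ubiquitin ligase, had 18, 4 and 18 members, of which 1, 0 and 0 were higher, with median log2 read ratios of 0.09, 0.36 and -0.42. PRKDC, the catalytic subunit of DNA-dependent protein kinase, had 13, 11 and 8, of which 2, 1 and 0 were higher, at medians of -0.24, -0.49 and -0.54. DYNC1H1, the dynein heavy chain, had 14, 11 and 11, of which 3, 4 and 5 were higher, at 0.46, 0.62 and 0.43. A recovered intron lay in 12 of 18, 0 of 4 and 12 of 18 members of UBR4, in 1 of 13, 1 of 11 and 0 of 8 of PRKDC, and in 1 of 14, 0 of 11 and 0 of 11 of DYNC1H1. TNRC18, a chromatin-associated protein, differed: it had 10, 9 and 10, of which 10, 8 and 10 were higher, at 2.59, 3.27 and 2.01.

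Few members were called lower, 6 of HPr1AR, 1 of LNCaP and 8 of 22Rv1, where 0.0911%, 0.101% and 0.746% of all regions were lower. In HPr1AR the one with the smallest adjusted p was in PRDX1, a peroxidase, with 16 m6A and 98 IgG reads (-1.42, interval -2.29 to -0.65; adjusted p = 3.34e-04 by the exact binomial test). TTC37, CSE1L, MDM2 and LAMA3 followed, at -3.33, -1.59, -3.06 and -1.30. In LNCaP it was MAOA, which breaks down amine transmitters, with 11 and 54 reads (-1.12, interval -2.20 to -0.17). In 22Rv1 the mitochondrial chaperone HSPD1 had 13 and 48 reads (-1.34, interval -2.35 to -0.43), and PARP1, CAPRIN1, MTHFD2 and ACAT2 lay between -1.14 and -1.85.

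Adjusted p-values were ranked among the values as rebuilt; members with a deposited p-value of 0 carry only an upper limit and could rank before those named. In HPr1AR BIN3, a BAR domain protein, had 59 m6A reads against 1 (log2 read ratio 7.07, interval 4.54 to 12.40; adjusted p = 1.09e-25 by the exact binomial test). IPO13, an importin, had 89 against 18, the kinase MAP3K13 58 against 1 and TBC1D9B 57 against 1. In LNCaP the developmental factor TBX1 had 96 against 4 (5.76, adjusted p = 2.09e-39 by the exact binomial test), and ZDHHC8, ESCO2, MYO9A and TBL2 followed. For these 5 of LNCaP and for IPO13 more than 1 pair of counts fitted, and the lowest ratios among them were 5.47 for TBX1, 5.32 for ZDHHC8, 3.41 for ESCO2, 3.94 for MYO9A, 3.27 for TBL2 and 3.16 for IPO13. In 22Rv1 the antisense RNA SLC25A25-AS1 had 85 against 1 (6.96), with CAMSAP3, ABCC10 and LMTK3 at 5.99, 5.99 and 5.97. Whether counting used strand is not given in the sources used here, so reads of an antisense RNA and of its partner cannot be told apart.

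Among the 5 widest members of each line the ratio varied from none to large. In HPr1AR, PCF11, which acts in transcript termination, had at least 4.14, while F3, tissue factor, with 37 m6A and 72 IgG reads (0.23, interval -0.38 to 0.82) and DCBLD2 with 15 and 15 (1.19, interval 0.06 to 2.32) were not called. In LNCaP all 5 were higher, from RANBP2, a nuclear pore protein, at 1.73 or more, to PPP1R16A at 4.40 or more. In 22Rv1 KNL1, DDX3X, CCND1 and MIRLET7BHG were higher, at 3.69, 2.03, 2.87 and 1.34, and SLC25A10, with 14 m6A and 8 IgG reads, was not called.

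Many members overlapped a member of another line. The same share over all regions is not given here, so whether members recur more than other regions is not known. The shares also depend on the unequal numbers of members, 5948, 4711 and 3210. Of HPr1AR members 58.5% overlapped an LNCaP member by at least 1 bp and 42.7% a 22Rv1 member; of LNCaP members 74.1% overlapped one of HPr1AR and 56.4% one of 22Rv1; of 22Rv1 members 80.2% overlapped one of HPr1AR and 83.5% one of LNCaP. Members that met no member elsewhere usually met a shorter or otherwise marked region, since 83.5% to 97.3% overlapped some region of the other table. Where members of the same gene overlapped, the ratios showed little shift between lines in the median. These pairs include lower bounds, and the spread of the differences is not given here. The median difference was -0.04 between HPr1AR and LNCaP over 3481 pairs, 0.00 between HPr1AR and 22Rv1 over 2537, and 0.05 between LNCaP and 22Rv1 over 2656. As a description across regions, Spearman's rho of the ratios was 0.77, 0.77 and 0.80 among 2355, 1724 and 1926 pairs with exact reads in both. Exact reads here include members where more than 1 pair of counts fitted. Such pairs share gene, part of their sequence and a width of at least 1000 bp.

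In some pairs the 95% intervals of both lines did not overlap. Of 2355 exact pairs of HPr1AR and LNCaP, HPr1AR lay above in 32 and LNCaP in 35. Of 1724 pairs of HPr1AR and 22Rv1, HPr1AR lay above in 22 and 22Rv1 in 19. Of 1926 pairs of LNCaP and 22Rv1, LNCaP lay above in 22 and 22Rv1 in 17. CDH1, the epithelial cadherin, had 39 m6A against 1 IgG read in HPr1AR (6.48, interval 3.91 to 11.82) and 40 against 2 in 22Rv1 (4.87, interval 2.92 to 7.96), but 30 against 54 in LNCaP (0.33, interval -0.37 to 1.00), around chr16:68855891-68857550. HDLBP, an RNA-binding protein, had a member with 49 against 66 reads in HPr1AR (0.76, interval 0.20 to 1.32) and 42 against 0 in 22Rv1 (at least 4.35). G3BP1, a stress granule core protein, had 47 against 5 in HPr1AR (4.42, interval 3.10 to 6.11) and 20 against 47 in LNCaP (-0.06, interval -0.89 to 0.73). These genes were picked after their values were seen, the representative window can differ between lines, and the differences carry no test across samples.

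The cell line labels were checked against markers of prostate epithelium. Of 10 basal markers all 10 were listed in HPr1AR, while LNCaP listed 3 and 22Rv1 4, and 39, 5 and 0 members lay in them. Of 11 luminal markers 7, 11 and 11 were listed, with 0, 19 and 3 members. Of 5 fibroblast markers 1 was listed in each line, and of 4 immune markers 0, 1 and 1; neither list held a member. Members in marker genes had low ratios: the basal ones of HPr1AR had a median of 0.50 with 11 of 39 higher, and the luminal ones of LNCaP 0.91 with 11 of 19 higher. EGFR, the growth factor receptor, had 10 members in HPr1AR with 1 higher, at a median of 0.72. FOLH1, the prostate-specific membrane antigen, had 8 in LNCaP with 4 higher, at a median of 0.83.

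At the width limit itself, members of exactly 1000 bp included EMC1 in HPr1AR (20 m6A and 13 IgG reads, 1.81) and KDM1A (5 and 22, -0.95), UBR4 (-0.14) and TMCO4 (1.91) in LNCaP, and ACAP3 (1.87) and EXOSC10 (0.55) in 22Rv1. Regions of 990 bp just outside it included UBR4 (-0.35) and another of KDM1A (-0.35) in HPr1AR, TMEM201 (0.06) in LNCaP, and EMC1 (4.29) and RNF19B (2.77) in 22Rv1.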

How the data were processed

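RNA pull-downs with m6A antibody and IgG from 3 cell lines were sequenced, and the authors deposited 1 table of regions per line. Per the file headers, each region has a log2 fold, a p-value with its adjustment, numbers of windows, and overlapping and neighbouring genes. The submitters' processing notes name hg38, but 12.5%, 12.5% and 12.9% of members with a matched symbol lay inside the GRCh38 span of their gene (RefSeq, GRCh38.p14), so coordinates are printed as deposited with no build named; the aligner, the counter and the test behind them: not given in the sources used here. Sequence was not read by coordinates.

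The deposited log2 fold followed log2(m6A reads + prior) minus 2 times log2(IgG reads + prior) plus a constant. Constants were fitted on regions of 1 window, and whole reads were then sought, up to 150 numerator reads, to give each fold and p-value. They were found for 100%, 98.5% and 99.7% of regions with p above 0, and for 1.00%, 16.1% and 1.12% after a random shift of the folds. Depths rest on the assumption that priors scale with depth. The labels aim at 40 M read pairs per sample, more than these depths hold, so each may count reads kept after filters that are not given. No p-value here measures the spread between samples. Reads were tested with the exact binomial test, two-sided (2 times the smaller tail), adjusted by Benjamini-Hochberg over all regions of a line at 0.05. Intervals are exact binomial at 95%. In a ratio, 3 reads stand in for a count of 0. The representative window was placed by its number in the table.

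Members and gene lists were chosen with earlier results of these data known. The text names, per line, the 5 widest members, the 5 with the smallest adjusted p, up to 5 lower ones, the 2 regions on either side of the width limit, and, over lines, 10 genes higher in all 3 and the 5 genes with most members; from the gene lists it names the widest members and others chosen after their values were seen. Some results that these rules name, among them 1 of 10 gene lists, are not reported here. 0 columns of per-sample values were left unused. Steps were tested on simulated data. Python 3.11.15, numpy, pandas and scipy were used.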

Additional observations from a re-analysis of the deposited data

How the results depend on the processing

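Across 81 alternatives, 32 values were labelled the same as the main value, 49 moved and 0 reversed direction. The margin behind this label is not given here and differed between kinds of result. In HPr1AR a fall from 3703 to 2742 higher members, with p multiplied by the number of windows, counted as the same. A median going from 1.78 to 1.70 there, with type E only, counted as moved. Width had the widest reach. At a minimum of 500 bp, 11155, 9109 and 6720 regions of HPr1AR, LNCaP and 22Rv1 in turn were up in the authors' deposited table; at 2000 bp, 2251, 1804 and 1073. By the read ratio, 5916, 4844 and 4038 were higher at 500 bp, with medians of 1.57, 1.76 and 2.01, and 1668, 1394 and 840 at 2000 bp, with medians of 2.19, 2.67 and 2.72. The gap to shorter internal exon regions was 38.2, 41.1 and 40.2 points at 500 bp and 49.7, 55.1 and 48.9 at 2000 bp. Genes with members in all 3 lines were 3061 and 626. Centred on the median of all regions, 2204, 1949 and 915 members were higher. With only members of exact reads and a single fitting pair, which also leaves out the lower bounds, 2371 of 4558 in HPr1AR (52.0%) and 1214 of 2170 in LNCaP (55.9%) were higher. Type E alone gave medians of 1.70 in HPr1AR and 2.01 in LNCaP. The gap was 4.11, 10.4 and 13.5 points in bins of windows and total reads, and 31.3 in HPr1AR and 38.9 in LNCaP above a shared read rate. Alternatives chosen after seeing the data gave 13.2, 18.3 and 9.51 points in bins of total reads, and 39.1 and 42.5 in HPr1AR and LNCaP in bins of IgG reads. The other ones so chosen were the lowest ratio among fitting pairs, no recovered intron, and no adjoining pieces. With a reciprocal overlap of 50%, HPr1AR members shared 52.5% with LNCaP and 37.4% with 22Rv1, LNCaP members 66.3% with HPr1AR and 50.4% with 22Rv1, and 22Rv1 members 69.3% with HPr1AR and 73.9% with LNCaP.

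With each binomial p multiplied by the number of windows in the region, 2742 (46.1%), 2314 (49.1%) and 1640 (51.1%) members were higher. No paired analysis was possible because the tables hold no value per sample, and leaving out a replicate could not be run for the same reason.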
